A study of Mus musculus with 6 samples.

Results

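The genes described here are 50 genes of mitosis, chosen by name for their roles in chromosome segregation, out of 18194 genes that had a probe set of their own on the array. Every probe set annotated to 1 of these genes alone was taken, which gave 115 probe sets for 49 genes, 108 of them above the filter on dim signals. All 49 genes passed that filter. Ccnb1, which encodes cyclin B1, was not analysed here. RNA came from early erythroid progenitors that were sorted from livers of 13.5-day fetuses after antibody staining for CD71 and Ter119, with 7AAD as a dye of dead cells. Of the 6 arrays, 3 were labelled wild type and 3 as homozygous for a knockout of Eklf, all with the strain given as C57BL/6. Eklf, listed under the symbol Klf1, binds CACCC sequences of erythroid genes and activates them. The allele was made by gene targeting with genomic clones of strain 129, and the labels name no promoter or cell type that would restrict it. They name 1 fetal liver per array and call the RNA samples independent.

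Mitosis separates the copied chromosomes into 2 daughter cells. Cyclin-dependent kinase 1 with its B-type cyclins starts it, condensin compacts the chromosomes, motor proteins and microtubule-binding proteins build the spindle, and the kinetochore ties each chromosome to it. The spindle checkpoint holds the cell until every kinetochore is attached, the anaphase promoting complex then triggers separation, and cytokinesis divides the cell. Erythroid progenitors divide several times as they mature, with each division coupled to the build-up of haemoglobin.

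Many mitosis genes share short promoter elements: the cell cycle homology region (CHR), bound by the MuvB complexes that include the products of Mybl2 and Foxm1, and the CCAAT box, bound by NF-Y. RefSeq promoter windows of build GRCm38.p6, reaching from 250 bases before to 50 bases after the gene start, matched 42 of the 50 genes with 45 windows; Aurkb, Ccna2, Foxm1, Incenp, Kif20a, Smc4, Spc24 and Tpx2 were not matched. A CHR, searched as TTTGAA or TTCGAA on both strands, was found in windows of 31 of the 42 genes, and in 34 of the 45 windows (75.6%), where 19.2% of all 32851 windows of this length held it. The letters CCAAT, on either strand, were found in windows of 30 of the 42 genes, or 73.3% of the windows against 37.4% of all. The letters CCNCNCCC, the core of the sequence bound by the KLF1 protein, were found in windows of 26 of the 42 genes, or 62.2% against 49.5%. A match is a description of the letters in the window and does not show binding. The windows of 4 genes are printed to show this arrangement in genes with different results, with the CHR and CCAAT letters in capitals. Those of Plk1 and Cdc20, which were lower on the knockout-labelled arrays, lie at chr7:122159185-122159484 on the plus strand and chr4:118437294-118437593 on the minus strand. That of Ccnb2, which did not pass the test, lies at chr9:70421505-70421804 on the minus strand. That of Pttg1, which was higher, lies at chr11:43425932-43426231 on the minus strand.
Plk1: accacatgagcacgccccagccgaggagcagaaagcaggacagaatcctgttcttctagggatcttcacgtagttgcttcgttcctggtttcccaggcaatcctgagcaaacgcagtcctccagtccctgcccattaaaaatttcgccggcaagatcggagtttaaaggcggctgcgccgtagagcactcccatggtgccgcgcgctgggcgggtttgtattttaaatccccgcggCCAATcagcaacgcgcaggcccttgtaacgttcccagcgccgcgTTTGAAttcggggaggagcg
Cdc20: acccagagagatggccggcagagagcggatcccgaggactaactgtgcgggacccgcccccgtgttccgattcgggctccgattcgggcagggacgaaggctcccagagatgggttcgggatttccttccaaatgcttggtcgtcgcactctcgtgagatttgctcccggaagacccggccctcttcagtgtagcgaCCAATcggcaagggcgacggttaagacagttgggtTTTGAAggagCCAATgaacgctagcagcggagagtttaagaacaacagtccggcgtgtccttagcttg
Ccnb2: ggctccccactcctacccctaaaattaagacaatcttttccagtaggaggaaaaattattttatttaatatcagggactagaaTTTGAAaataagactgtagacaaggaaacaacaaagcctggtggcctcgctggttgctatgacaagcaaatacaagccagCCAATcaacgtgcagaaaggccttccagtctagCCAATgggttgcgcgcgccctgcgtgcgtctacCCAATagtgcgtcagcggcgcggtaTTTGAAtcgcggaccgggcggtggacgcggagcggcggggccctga
Pttg1: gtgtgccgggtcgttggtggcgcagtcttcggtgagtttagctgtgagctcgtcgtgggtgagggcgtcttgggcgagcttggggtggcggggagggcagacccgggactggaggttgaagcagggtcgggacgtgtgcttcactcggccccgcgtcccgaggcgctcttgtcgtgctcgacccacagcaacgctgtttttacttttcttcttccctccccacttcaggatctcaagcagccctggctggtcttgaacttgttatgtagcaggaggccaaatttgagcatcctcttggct
In the Cdc20 window the CHR starts 18 bases before the gene start with CCAAT boxes 53 and 8 bases before it, and in the Ccnb2 window 3 CCAAT boxes stand 87, 54 and 21 bases before the start. The Plk1 window has its CCAAT box 14 bases before the start and its CHR 30 bases after it. The Pttg1 window held neither sequence. A CHR was found in the windows of 8 of the 9 matched genes that were lower on the knockout-labelled arrays, in 1 of the 3 that were higher and in 22 of the 29 that did not pass the test. In the same order, CCAAT was found for 7, 1 and 21 genes, and CCNCNCCC for 5, 2 and 18. The window of Mad2l1, which was lower, held neither a CHR nor CCAAT, and that of Kif4, which was higher, held both. These shares were not tested.

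Several facts of the arrays bear on every value below. The labelled groups differed widely, and 48.7% of the 12800 genes tested were called at a limma adjusted p under 0.05. The targeted gene, Klf1, overlapped between them, with signals of 2508, 2706 and 4030 under the wild-type label and 3505, 1391 and 2545 under the knockout label (exact two-sided permutation p = 0.5, where 3 against 3 allow no p under 0.1), and where its probe set lies relative to the deletion is not stated in the labels. The groups are therefore called by their labels. Of the 14 erythroid markers tested, Gata1, Slc4a1 and Tfrc were bright in both groups. Their means were 1462 and 5349 for Gata1, 5677 and 21835 for Slc4a1 and 5828 and 8039 for Tfrc (wild-type label first). Hba-a1, Epb42 and Car1 were dimmer under the wild-type label, with means of 94.3 and 156, 257 and 1420.5, and 535 and 4531.5. Hba-a1 lay near the filter and did not pass the test (limma adjusted p = 0.108). The knockout-labelled arrays were higher for 11 of 14 erythroid markers, 17 of 17 hepatocyte and 11 of 13 megakaryocyte markers. Of 11 stem and progenitor markers 8 were lower and 2 higher, of 10 lymphoid markers 8 were lower and 1 higher, and of 14 macrophage and neutrophil markers 6 were lower and 4 higher. The summed signal of the hepatocyte markers was 12359 to 15562 against 158350 to 242480 (wild-type label first), and that of the lymphoid markers was 22375 to 33199 against 1023 to 1789. It was 31424 to 36656 against 98828 to 124480 for the erythroid, 22650 to 24005 against 7962 to 8733 for the stem and progenitor, 12300 to 16715 against 44285 to 54858 for the megakaryocyte, and 180810 to 209150 against 101560 to 205060 for the macrophage and neutrophil markers. None of the markers tested was at 0 on any array, and 1 hepatocyte, 3 lymphoid and 2 macrophage and neutrophil markers lay under the filter. The 3 control probe sets for 18S ribosomal RNA read at most 187 under the wild-type label and 1431 to 60652 under the knockout label, and the 18 hybridisation control probe sets were 1.74- to 4.63-fold higher on the latter. These differences run with the labels, so these measures and the genotype cannot be told apart, and their part in the values of the mitosis genes was not tested. A lower signal in sorted cells can reflect, among other things, fewer dividing cells or less of that transcript per cell. These arrays cannot tell such readings apart, and none was tested.

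Mitosis transcripts were split between the groups, and the shifts were mostly small. Of the 49 genes tested, 12 were lower on the knockout-labelled arrays, 4 were higher and 33 did not pass the test, where 20.8% of all genes were called lower and 27.9% higher. That is 24.5% lower and 8.16% higher for the mitosis genes. Among the genes that fell were Plk1, the kinase that drives mitotic entry, the kinetochore gene Spc24, the checkpoint gene Bub3 and the condensin gene Ncapd2, and 0 of the 12 fell by 2-fold or more. Those that rose were Pttg1, Kif4, Ccna2 and Cit, and Cit alone rose by over 2-fold. The median log2 difference, knockout-labelled minus wild-type-labelled, was -0.21 over the 49 genes and 0.14 over all genes tested. Bright genes as a whole lay lower on the knockout-labelled arrays. In the brightest 25% of all genes, those with a mean signal of at least 1340, 50.4% were called, 35.3% lower and 15.2% higher, with a median of -0.25. In this range lay 40 of the mitosis genes, of which 11 (27.5%) were lower and 4 (10.0%) higher, with a median of -0.23. Read against genes of like brightness, the share of mitosis genes called lower was thus not above the background. The signals of the 2 groups did not overlap for 17 genes downward and 7 upward, where 25.2% and 34.1% of all genes were apart in these directions. In the brightest 25%, 1351 of 3200 genes were apart downward and 561 upward, and of the 40 mitosis genes there 16 and 7.

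**Figure D1:**
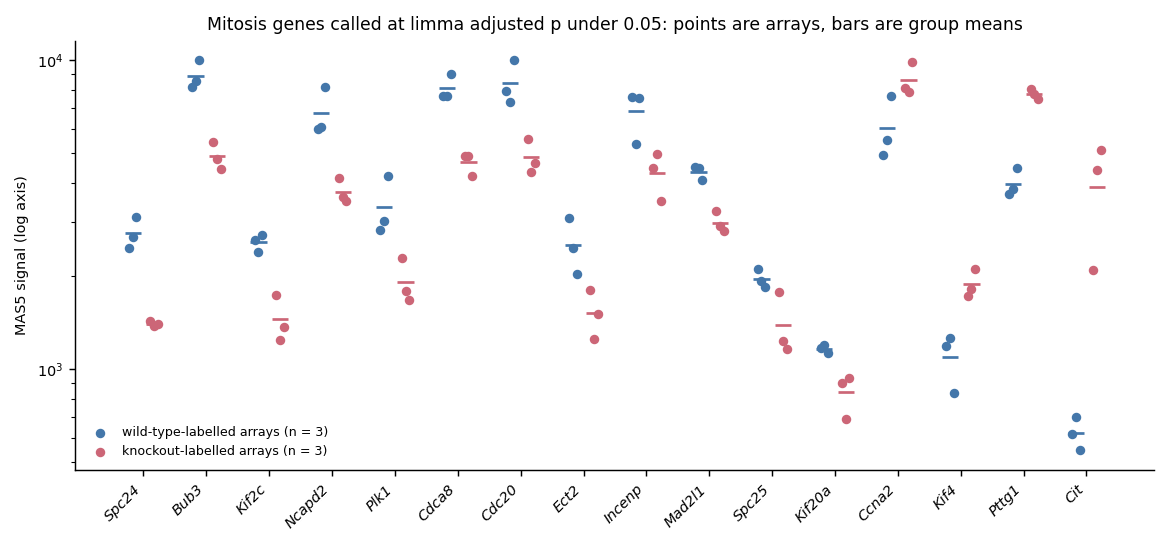
MAS5 signal (log axis) of the 16 mitosis genes called at a limma adjusted p under 0.05, ordered by their difference. Points are arrays (3 per group), bars are group means. In each gene the 2 groups do not overlap, and Cit alone shows a gap of over 2-fold between the means.

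Of 5 genes for Cdk1, its cyclins and mitotic transcription factors, 1 rose and 4 did not pass. Cdk1, the kinase that starts mitosis, had signals of 5677, 5786 and 7510 under the wild-type label and 5120, 4929 and 5800 under the knockout label (each triplet below keeps this order). Its log2 difference was -0.25 ± 0.16 (SE), with a limma adjusted p of 0.225. The groups overlapped for Cdk1, as they did for Ccnb2, one of its B-type cyclins (-0.14), and for the transcription factors Foxm1 (0.043) and Mybl2 (-0.23), which drive transcription of mitosis genes. The exception was Ccna2, cyclin A2, the cyclin of S phase and early mitosis, which was the brightest of this set. Its signals were 4939, 5524 and 7622 against 8130, 7852 and 9878, so every knockout-labelled array lay above every wild-type-labelled one, and it rose by 0.53 ± 0.19 (SE, limma adjusted p = 0.0436). A second Ccna2 probe set gave 4811, 5243 and 4989 against 5584, 4573 and 5678, where the groups overlapped (0.068). The call of Ccna2 was lost in 10 of 19 processing alternatives and its difference was -0.28 after median centring. Dimmer Foxm1 probe sets gave -0.47 and 0.21, and neither passed.

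Among mitotic kinases and spindle assembly genes Plk1 fell and the other 6 did not pass. Plk1 gave 2828, 3027 and 4219 against 2297, 1791 and 1670. Its groups were apart, the means were 3358 ± 752 and 1919 ± 333 (SD, n = 3), and it fell by 0.80 ± 0.20 (SE, limma adjusted p = 0.0100). Its partner kinase of the spindle poles, Aurka, stood at 2439, 2503 and 3602 against 3264, 2510 and 2971, a difference of 0.049 ± 0.19 with overlapping groups. Nusap1, a spindle microtubule protein and the brightest of the set, gave 4693, 4417 and 3445 against 3744, 4005 and 3971 (-0.087). Its second, dim probe set read 81, 68 and 81 against 185, 134 and 226 and rose by 1.21. Tpx2, which activates Aurka on the spindle, had 4 probe sets that disagreed. The brightest gave 0.35 without passing, with 1780, 1436 and 1464 against 1959, 1804 and 2199. The second fell by 1.08, from 1238, 1116 and 1107 to 766, 354 and 593, and the other two rose by 1.14 and 1.30. For Hmmr, a spindle pole protein, all 5 probe sets were above 0 (0.75 to 1.71), and 2 of them, the dimmer ones, passed. Plk4, the kinase of centriole copying (-0.37), and Ckap2, a spindle protein (0.28), did not pass. Dimmer Plk4 probe sets gave -0.21 and 0.13 without passing.

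Of the 5 spindle motors Kif2c and Kif20a fell and Kif4 rose. Kif4, a chromosome-bound kinesin that works with condensin, gave 1189, 1259 and 835 against 1723, 1815 and 2105. The groups were apart and it rose by 0.80 ± 0.20 (SE, limma adjusted p = 0.00904), although after median centring its difference was -0.017. Kif20a, a kinesin of the central spindle, gave 1169, 1198 and 1130 against 901, 689 and 938. It fell by 0.48 ± 0.18 (limma adjusted p = 0.0483), and the call was lost in 12 of 19 alternatives, among them the fits without each of the 6 arrays in turn (limma adjusted p from 0.0508 to 0.156). Kif2c, which takes microtubules apart at kinetochores, fell by 0.84 ± 0.17 at its brightest probe set, with 2628, 2389 and 2725 against 1736, 1248 and 1372. Its next probe set was level between the groups at 1147, 1111 and 1434 against 1189, 1239 and 1326 (0.032). The other two rose, by 0.87 (652, 710 and 866 against 1195, 1352 and 1520) and by 1.40. The direction of Kif2c therefore depends on the probe set. Kif11, the motor that pushes spindle poles apart and the brightest of the set, gave 2320, 2456 and 1247 against 2138, 2377 and 2199 (0.22). Kif23, a motor of the central spindle, gave 2056, 1486 and 1231 against 1430, 1155 and 1394 (-0.24). Neither passed, and each had probe sets of both signs.

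In the kinetochore set 2 of 7 genes fell and 0 rose, and both encode subunits of the Ndc80 complex, which links kinetochores to microtubules. Spc24 gave 2465, 2668 and 3116 against 1434, 1379 and 1397, the last triplet within a narrow range. It fell by 0.96 ± 0.15 (SE, limma adjusted p = 0.00103), and it has 1 probe set. Its partner Spc25 gave 2114, 1932 and 1845 against 1776, 1234 and 1161, where the groups were apart by a small gap, and fell by 0.52 ± 0.19 (limma adjusted p = 0.0478). A dim second probe set of Spc25 rose by 1.51, with 163, 168 and 110 against 320, 488 and 442. The other two subunits of the complex, Ndc80 (-0.13) and Nuf2 (-0.21), did not pass, with overlapping groups. Cenpa, the histone variant that marks centromeres and the brightest of the set, gave 5102, 4851 and 6778 against 4019, 3752 and 4481. The groups were apart at -0.44 ± 0.17, but the test was not passed (limma adjusted p = 0.0589), and 1 of its dim probe sets rose by 1.48. The large kinetochore proteins Cenpe (0.68) and Cenpf (0.11) did not pass, and their values on wild-type-labelled array 3 are given below. A dimmer Cenpf probe set rose by 1.11, with 233, 262 and 145 against 436, 467 and 434 (limma adjusted p = 0.0141).

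The spindle checkpoint genes Bub3 and Mad2l1 fell. Mad2l1, the MAD2 protein that blocks anaphase, gave 4500, 4475 and 4081 against 3249, 2896 and 2792, apart in every array, and fell by 0.55 ± 0.14 (SE, limma adjusted p = 0.0116). It has 1 probe set. Bub3, which brings the BUB kinases to kinetochores, was the brightest of the set with 8198, 8543 and 9980 against 5424, 4775 and 4451, and it fell by 0.87 ± 0.15 (limma adjusted p = 0.00174). The other 3 Bub3 probe sets above the filter were 0.032 to 0.19 and did not pass, the first with 877, 794 and 922 against 777, 898 and 984. Bub1b, the checkpoint protein BUBR1, was level at its brightest probe set with 2395, 2702 and 2878 against 2960, 2369 and 2604 (-0.0093). Its second probe set, of like brightness, fell by 0.89, from 2494, 2390 and 2889 to 1597, 1195 and 1406. The checkpoint kinases Bub1 (0.074) and Ttk (-0.40) did not pass. At their dimmer probe sets Bub1 gave -1.02 and Ttk 0.99, and neither passed.

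All 4 genes of the chromosomal passenger complex, which corrects faulty attachments and later guides cytokinesis, had differences below 0, and 2 of them passed. Cdca8, the subunit borealin, gave 7648, 7651 and 9010 against 4896, 4908 and 4221, and fell by 0.79 ± 0.15 (SE, limma adjusted p = 0.00239). Incenp, its scaffold, gave 7594, 5356 and 7522 against 4462, 4956 and 3502, and fell by 0.66 ± 0.20 (limma adjusted p = 0.0204). In both genes the groups were apart at the brightest probe set, while the dimmer ones differed. The second Cdca8 probe set gave -0.18 and the third 0.21, and an Incenp probe set with 334, 573 and 742 against 970, 888 and 1004 rose by 0.87. The kinase of the complex, Aurkb, gave 1886, 2407 and 2584 against 1884, 1615 and 1394, so that the groups were separated by 2 signal units between their nearest arrays. Its difference of -0.49 ± 0.18 did not pass (limma adjusted p = 0.0519), and its second probe set fell by 0.81. Birc5, the subunit survivin, did not pass at -0.22.

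Genes of the anaphase trigger moved in opposite directions. Cdc20, the activator of the anaphase promoting complex, gave 7950, 7306 and 9963 against 5571, 4348 and 4637, with groups apart. It fell by 0.79 ± 0.17 (SE, limma adjusted p = 0.00518), its second probe set gave -0.42 without passing, and the third, dim on the knockout-labelled arrays at 98, 23 and 94 against 392, 395 and 572, fell by 2.90. Pttg1 encodes securin, the inhibitor of separase that this complex destroys. Its signals were 3684, 3814 and 4459 against 8070, 7786 and 7502. The groups lay far apart, the means were 3986 ± 415 and 7786 ± 284 (SD, n = 3), and Pttg1 rose by 0.97 ± 0.14 (limma adjusted p = 0.000695). Its other probe sets rose further, by 2.06 (743, 652 and 839 against 2956, 2956 and 3345) and by 2.02. Among the called genes with more than 1 probe set, Pttg1 alone had every probe set called in the same direction. Its call was lost in 1 of 19 alternatives, after median centring (0.16, adjusted p = 0.648). Espl1, separase itself, did not pass at -0.15. Ube2c, the ubiquitin-conjugating enzyme of the complex and the brightest of the set, gave 6170, 6555 and 9888 against 8341, 8210 and 8908, with overlapping groups (0.20).

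Among condensin and chromosome structure genes Ncapd2 fell and the other 6 did not pass. Ncapd2, a regulatory subunit of condensin I, gave 5972, 6083 and 8176 against 4146, 3601 and 3502. The groups were apart and it fell by 0.84 ± 0.17 (SE, limma adjusted p = 0.00365), while a dimmer probe set gave 0.51 without passing. Ncaph, the kleisin that closes the condensin ring, gave -0.34 and did not pass (limma adjusted p = 0.0779), with groups apart at 4534, 4017 and 4076 against 3539, 3436 and 3015. The ATPase subunits Smc2 (0.32) and Smc4 (0.16) and the subunit Ncapg (0.50) did not pass. Dimmer probe sets of Smc2 rose by 2.02 (697, 762 and 180 against 1627, 1886 and 2086) and 2.30. Top2a, the topoisomerase that untangles sister chromatids, was level at 9383, 9504 and 5797 against 8891, 8374 and 8798 (0.11). Mki67, the proliferation marker Ki-67 that coats mitotic chromosomes, was the brightest of all 49 genes. It gave 11626, 10632 and 3649 against 13819, 15261 and 16713, with groups apart. Its difference of 0.99 ± 0.38 (SE) did not pass, with a limma adjusted p of 0.0548.

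Of 5 cytokinesis genes Ect2 fell and Cit rose. Ect2, which switches on RhoA at the cell equator, gave 3093, 2466 and 2032 against 1802, 1252 and 1511, apart in all arrays, and fell by 0.73 ± 0.21 (SE, limma adjusted p = 0.0165). Its partner Racgap1 gave 2612, 2638 and 3451 against 2327, 1918 and 2158 at the brightest probe set (-0.43, limma adjusted p = 0.0577), and its second probe set fell by 1.11, from 1958, 2020 and 2300 to 1286, 843 and 835. Prc1, which bundles microtubules of the central spindle and was the brightest of the set, gave 2957, 2957 and 2760 against 2262, 2151 and 2559. It did not pass at -0.32. Anln, the scaffold anillin, did not pass at -0.31, and its dimmer probe set gave 0.48 without passing. Cit, the citron kinase of the midbody, showed the largest difference and the least agreement. Its brightest probe set gave 620, 704 and 548 against 2099, 4394 and 5124, a rise of 2.54 ± 0.30 (limma adjusted p = 0.000210). Its second probe set fell by 1.18, from 1516, 1550 and 1663 to 933, 521 and 684, and the 2 dimmest rose by 0.90 and 1.23. On the wild-type-labelled arrays the second probe set was brighter than the first, and on the knockout-labelled arrays it was dimmer. The direction of Cit therefore cannot be given for the gene as a whole.

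**Figure D2:**
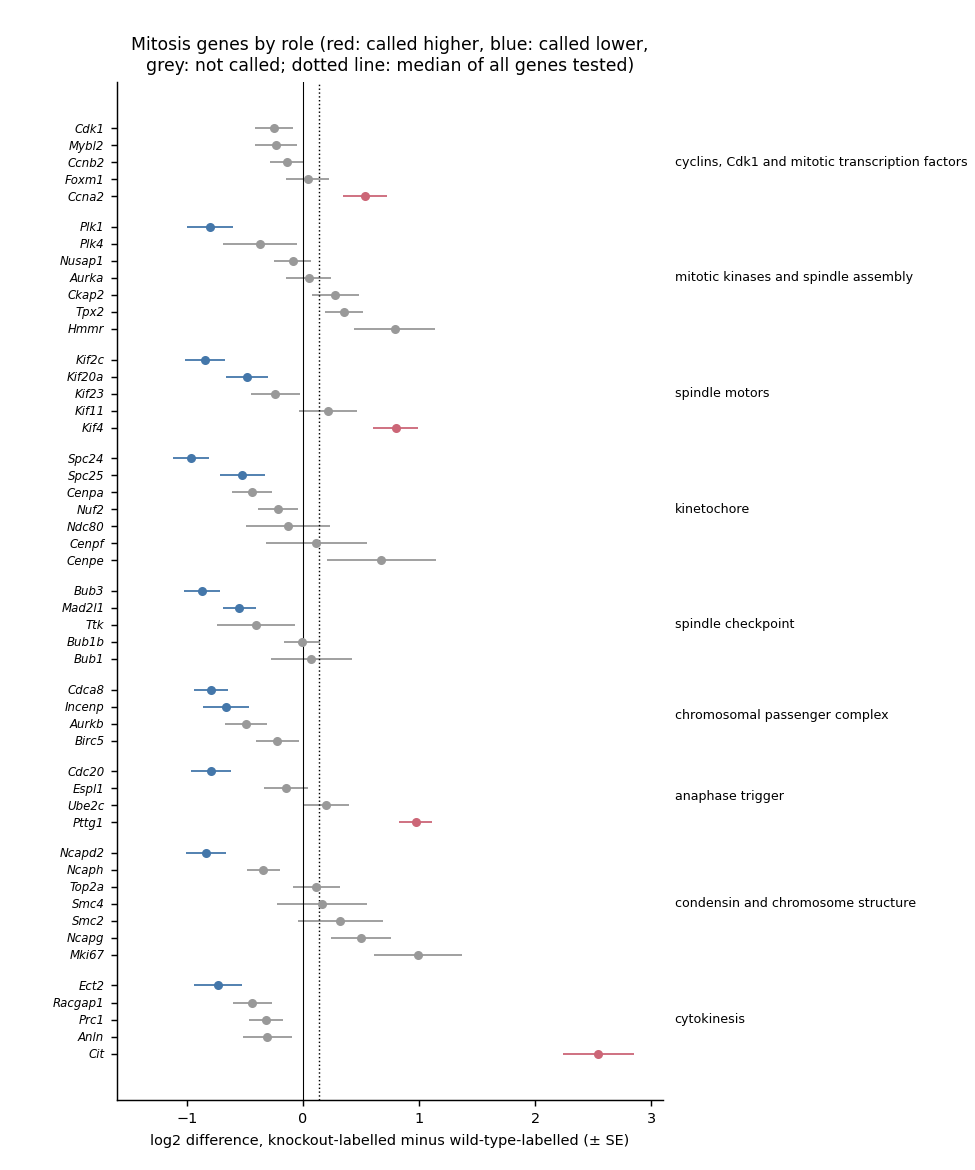
Log2 difference, knockout-labelled minus wild-type-labelled, ± SE for the 49 mitosis genes by role (n = 3 arrays per group; red called higher, blue called lower, grey not called). Most genes lie left of the dotted line, the median of all genes tested at 0.14, and Cit stands apart at 2.54.

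Probe sets of 1 gene often disagreed. The 108 mitosis probe sets above the filter were also tested among all 27023 probe sets, where 43.8% were called, 28.1% higher and 15.7% lower. Of the 108, 20 (18.5%) were higher and 16 (14.8%) lower, so over all of them the lower calls no longer outnumbered the higher ones. In this fit the brightest probe sets of Ccna2, Spc25 and Kif20a did not pass, with limma adjusted p of 0.0515, 0.0556 and 0.0585. Of 33 genes with more than 1 probe set, 17 (51.5%) had probe sets of both signs, against 43.7% of all such genes, and 4, namely Cit, Incenp, Kif2c and Tpx2, had probe sets called in opposite directions (12.1% against 5.78%). The sign moved with brightness. The median difference was 0.90 for the 23 mitosis probe sets with a mean signal under 512, of which 10 were higher and 1 lower, and it was -0.21 for the 34 at 2048 or above, of which 1 was higher and 7 lower. Over all named probe sets the medians in these ranges were 0.65 and -0.25. In 20 of the 33 genes (60.6%) the dimmer probe sets had the higher mean difference, as in 65.6% of all such genes. Affymetrix marks with _s_at and _x_at the probe sets that may bind transcripts of several genes, and 7 of the 16 called genes rest on one (Bub3, Cdc20, Cdca8, Cit, Incenp, Kif2c and Pttg1). With the brightest probe set that carries neither mark, chosen after seeing the data, 8 genes were lower and 3 higher. Pttg1 stayed higher, and Cit was lower. In that fit 19.7% of all genes were lower and 27.6% higher.

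**Figure D3:**
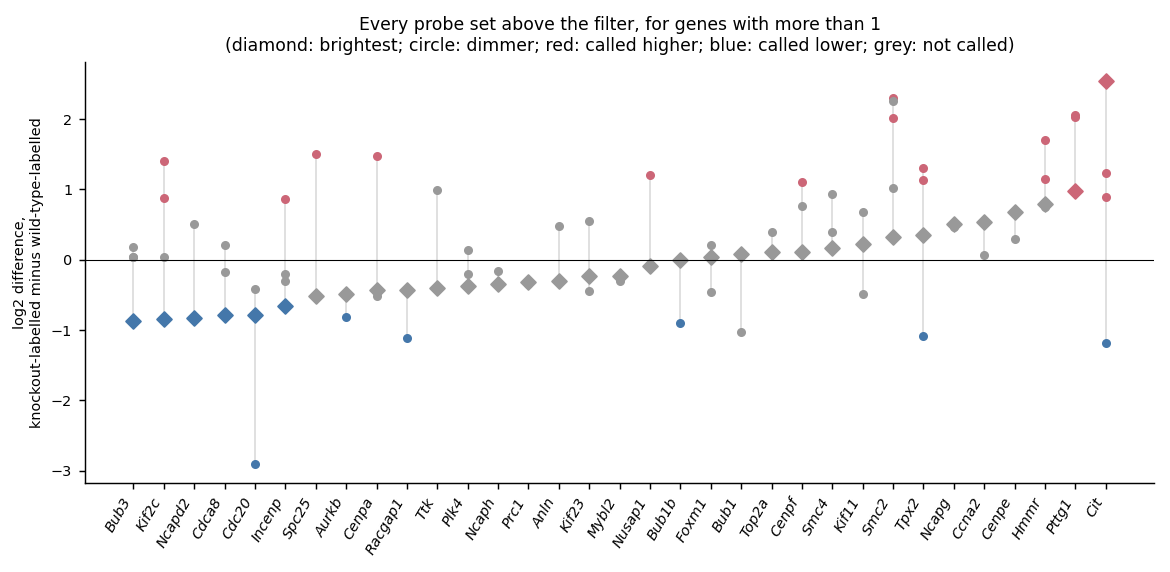
Log2 difference, knockout-labelled minus wild-type-labelled, of every probe set above the filter in the 33 mitosis genes with more than 1, coloured by the test over all probe sets (red higher, blue lower, grey not called). Diamonds are the brightest probe set of a gene and circles dimmer ones. In 17 of the 33 genes the probe sets lie on both sides of 0. Among these, the circles of Kif2c and Spc25, with 1 of the 3 circles of Cit (-1.18), lie on the other side of 0 from their diamonds.

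Wild-type-labelled array 3 stood apart for a subset of the mitosis genes. It was the lowest wild-type-labelled array for 25 of the 49 genes and the highest for 21. Among the genes called lower it was the highest for Plk1, Spc24, Kif2c, Bub3, Cdca8, Cdc20 and Ncapd2. It was the lowest for Kif20a, Spc25, Mad2l1 and Ect2. In 10 of 49 genes (20.4%) its signal was under 50% of both other wild-type-labelled arrays, which held for 6.09% of all genes and 4.12% of the brightest 25%. On the other wild-type-labelled arrays, 1 and 2, the same held for 0.633% and 0.57% of all genes, and on knockout-labelled arrays 1, 2 and 3 for 2.08%, 1.76% and 2.23%. Among 125 other mitosis genes array 3 was this low for 25, and among 43 DNA replication genes for 2 (4.65%). The 10 genes were Cenpe, Cenpf, Smc4, Mki67, Smc2, Hmmr, Bub1, Ndc80, Ttk and Plk4. Cenpe, the kinesin of the kinetochore, gave 1486, 1501 and 363 against 1457, 1470 and 1544, so 5 arrays were nearly equal and 1 was low. Cenpf gave 2828, 2833 and 767 against 2114, 1963 and 1882, and Smc4 gave 7682, 8068 and 2469 against 5768, 6214 and 6009. In both, the knockout-labelled arrays lay between wild-type-labelled array 3 and the other two. Smc2 (5814, 6295 and 2068 against 5743, 5191 and 4948), Bub1 (2568, 2610 and 953 against 1945, 2134 and 1794) and Ndc80 (719, 980 and 320 against 500.0, 542 and 639) showed the same order. Hmmr, with 2830, 3136 and 1084 against 3425, 3896 and 3724, and Mki67 were highest on the knockout-labelled arrays whether or not array 3 was counted. Ttk gave 1334, 1062 and 516 against 834, 723 and 523, and Plk4 gave 3317, 3096 and 1402 against 2412, 1750 and 1587.

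Without wild-type-labelled array 3, 6 of these 10 genes passed as lower, Mki67 passed as higher and 3 did not pass. The 10 genes were chosen for a low array 3, so leaving it out raised their wild-type-labelled mean and lowered each difference by construction. These calls are therefore no separate evidence of a lower signal. Cenpf went from 0.11 to -0.51 (limma adjusted p = 0.0137), Smc4 from 0.16 to -0.39 (0.0342) and Bub1 from 0.074 to -0.41 (0.0400). These values are of the brightest probe set of each gene, while a dimmer Cenpf probe set rose with all arrays counted. Ttk gave -0.81 (0.0213), Plk4 -0.77 (0.0126) and Ndc80 -0.59 (0.0471), and Mki67 gave 0.45 (0.0368). Over all 49 genes this fit called 18 lower and 6 higher. Of all genes tested it called 21.3% lower and 25.7% higher. On array 3 the ratio of the 3' to the 5' control probe set was 1.13 for Actb and 0.819 for Gapdh, against 1.07 to 1.22 and 0.797 to 0.881 on the other 5 arrays, and 4.53 for Tfrc against 4.23 to 8.45. Its median signal over all probe sets was 97.7, against 128 and 140 on the other wild-type-labelled arrays. The part of these measures in the low values was not tested. Among the knockout-labelled arrays 48 of the 49 genes stayed within a 2-fold range, the exception being Cit, and among wild-type-labelled arrays 39 did.

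**Figure D4:**
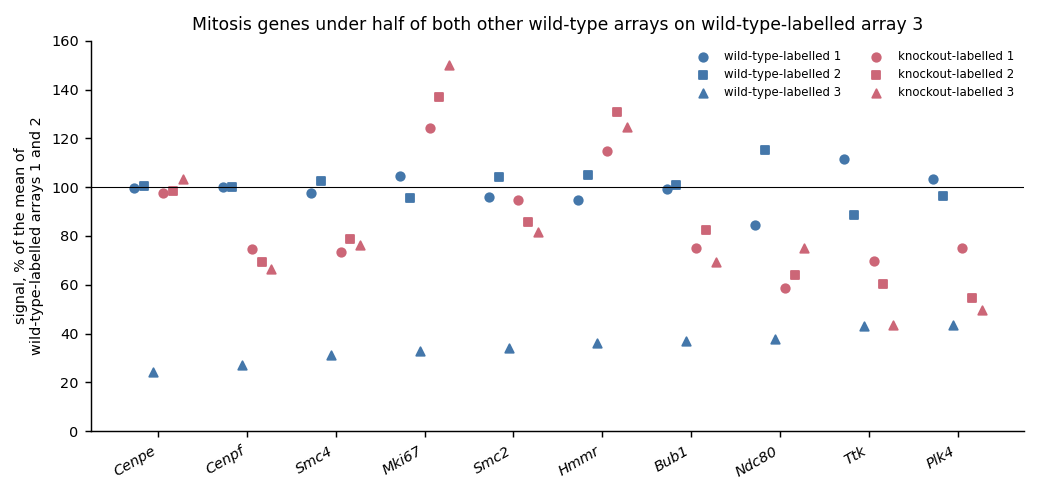
Signal of the 10 mitosis genes that were under 50% of both other wild-type-labelled arrays on wild-type-labelled array 3, as a percentage of the mean of wild-type-labelled arrays 1 and 2. Each point is 1 array, and the blue triangles of array 3 lie at 24.3% (Cenpe) to 43.7% (Plk4).

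Mitosis genes outside the 50 gave similar counts. Of 125 tested, 26 (20.8%) were lower, 11 (8.80%) higher and 88 did not pass, with a median of -0.17. Of all genes tested 20.8% were lower and 27.9% higher, and of the brightest 25% of genes 35.3% and 15.2%. The share called lower was thus not above the background. The 6 with the smallest p all fell. Trip13, which recycles MAD2 in the checkpoint, fell by 1.39 ± 0.15 (SE, limma adjusted p = 0.000134), from a mean of 2905 to 1115. Mis18a, needed to load Cenpa at centromeres, fell by 1.52 and Clasp1, a microtubule-stabilising protein of the kinetochore, fell by 1.40. Arpp19, an inhibitor of the phosphatase that opposes Cdk1, fell by 1.23, Cdca5, the cohesin protector sororin, fell by 1.03, and Lmnb1, of the nuclear lamina, fell by 0.86. Of the 11 that rose, 3 were named after their values were seen. Kif2a, a relative of Kif2c, rose by 1.38 ± 0.27 (SE, limma adjusted p = 0.00288), from a mean of 1520 to 3746. Wapl, which releases cohesin from chromosomes, rose by 1.35, and Mad2l1bp, which silences the checkpoint, rose by 1.02. Kif2a and Wapl were low on wild-type-labelled array 3, with 887 and 768 against at least 1785 on the other two. By role, 7 of 13 genes of mitotic entry fell, against 2 of 27 kinetochore genes and 2 of 15 genes of the anaphase promoting complex. The cohesin genes were even, with 2 of 13 higher and 2 lower. DNA replication genes were lower in 19 of 43 (44.2%) and higher in 2 (4.65%), with a median of -0.43. The difference between these lists was not tested.

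The calls depended on how the arrays were scaled. After median centring, which lowered the median of all genes from 0.14 to -0.68, 34 mitosis genes were lower and 1, Cit, was higher. After quantile normalization 7 were lower and 6 higher, and after cyclic loess 7 were lower and 7 higher, where the median of the mitosis genes was -0.011 and 0.0085. The median of all genes in these fits was -0.024 and 0.0039. Of all genes, quantile normalization called 21.4% lower and 17.4% higher, and cyclic loess 20.8% lower and 17.9% higher. Median centring called 47.9% of all genes lower and 8.48% higher. Plk1 and Spc24 were called lower in all 19 alternatives. Kif4 was called higher in 18 of 19, and Cit passed in 19 but with the opposite sign in 2. Plk1, Spc24 and Kif4 have 1 probe set each, so the alternatives that change the probe set left their differences as they were. For these genes the choice of probe set was therefore not tested.

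**Figure D5:**
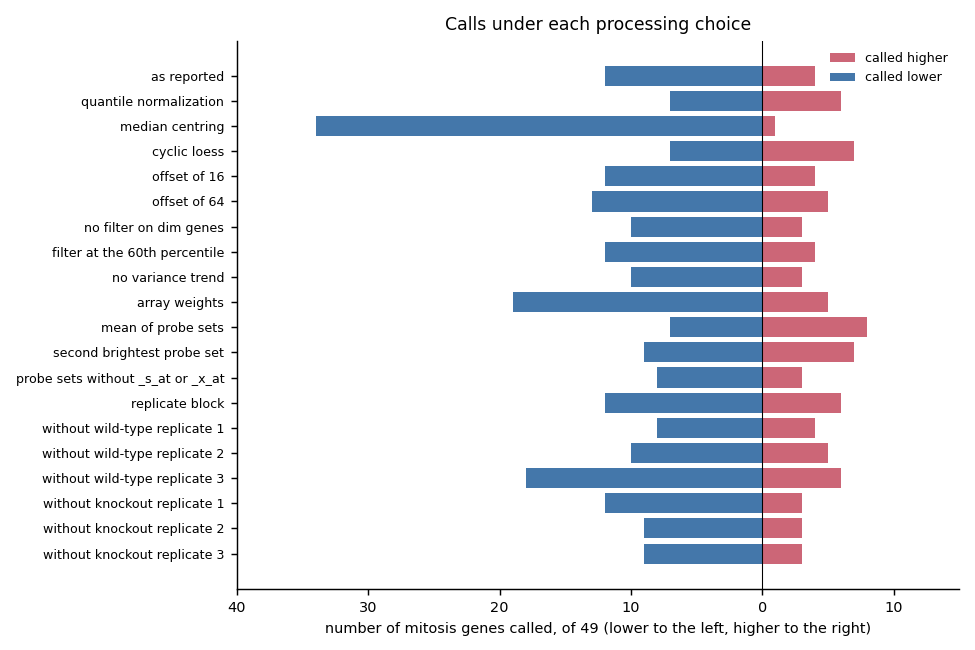
Number of the 49 mitosis genes called lower (left, blue) and higher (right, red) at a limma adjusted p under 0.05, as reported and under 19 processing choices. Median centring gives 34 lower and 1 higher, and cyclic loess 7 of each.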

How the data were processed

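The authors deposited 1 intensity per probe set on a linear scale; the submitters' processing notes name MAS5 and Affymetrix Expression Console, and their versions are not given in the sources used. The authors' values have 1 trimmed mean per array, 500, which leaves each array's median free. Of 45101 probe sets, 34958 were annotated to 1 gene; names were updated through Entrez identifiers to RefSeq (34754 matched). Signals under 1 were set to 1 and log2 was taken. Each gene was read at its brightest single-gene probe set, and genes whose mean signal was below 98.6 (40th percentile over the probe sets) were left out, which left 12800. limma 3.58.1 in R 4.3.3 (lmFit, eBayes with trend) compared the groups in two-sided tests, adjusted by Benjamini-Hochberg across all genes or across all 27023 probe sets; every adjusted p is limma's. Values for named genes cover those called, the brightest of each role and those whose probe sets disagree. The p-values measure only the spread between these samples, and 3 arrays a group limit the precision. The genes, lists and roles were chosen with earlier results of these data known. The fit was tested on simulated data with independent noise, few changed genes and no shift with brightness. These arrays differ from that setting, so the simulation does not bear on the dependence of the calls on scaling. Same-numbered arrays were checked for pairing: their deviations correlated at 0.0811, 0.0357 and 0.0901, against -0.1007 to 0.0158 for arrays of different numbers. All these values were small, and they cannot settle whether the numbers pair the arrays. The arrays were compared as unpaired, and a fit with the number as a block is given below. Python 3.11.15 and matplotlib 3.10.9 drew the figures.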

Additional observations from a re-analysis of the deposited data

Results flagged for a closer look

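The 18S ribosomal RNA control probe sets, which enter no comparison of genes, were higher on every knockout-labelled array. The mean on the knockout-labelled arrays was 391-fold that on the wild-type-labelled arrays for the 3' probe set, 345-fold for the 5' one and 625-fold for the middle one. The 3' probe set read 187, 141 and 54.0 under the wild-type label and 30195, 58481 and 60652 under the knockout label. Whether the mitosis genes moved with this signal was not tested, since it follows the labels. Groups of 3 arrays are too small for the test of single outlying samples.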

How the results depend on the processing

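The deposited values limit all calls through their scaling and through the choice of probe set, and the cause of each change below was not tested unless the choice itself lowers all genes (median centring). Of 304 values of the 16 called genes under 19 alternatives, 241 kept their sign and call, 49 lost the call and 14 changed sign. As a background, the fits without 1 array called 16.25% to 21.5% of all genes lower and 21.8% to 27.1% higher. Array weights called 26.0% of all genes lower, and the second brightest probe set 25.8% higher. The mean of probe sets called 15.4% lower and 29.1% higher, and the replicate block 21.1% lower and 27.9% higher. Median centring gave 34 lower and 1 higher mitosis genes, a median of -1.03, 59 called mitosis probe sets, 82 other mitosis genes and 40 DNA replication genes, and Klf1 passed at -1.20. Quantile normalization gave 7 lower genes and a median of -0.011, cyclic loess 7 lower, 7 higher and 0.0085, array weights 19 lower, -0.31 and 56 other mitosis genes, the mean of probe sets 8 higher, 7 lower and 0.088, the second brightest probe set 7 higher and 11 DNA replication genes, and probe sets without _s_at or _x_at a median of -0.14. Leaving out 1 array gave 8 to 18 lower and 3 to 6 higher genes, the most without wild-type-labelled array 3, a median of -0.30 to -0.13, 21 to 51 other mitosis genes and 13 to 26 DNA replication genes (13 without knockout-labelled array 2). With the replicate number as a block 6 genes were higher and 12 lower; Kif20a lost its call (limma adjusted p = 0.0664), same-numbered arrays correlated best with each other, and the arrays share only a number.

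Differences that changed sign after median centring were Ccna2 -0.28, Foxm1 -0.77, Aurka -0.77, Tpx2 -0.46, Hmmr -0.026, Ckap2 -0.54, Kif11 -0.60, Kif4 -0.017, Cenpe -0.14, Cenpf -0.70, Bub1 -0.74, Ube2c -0.61, Smc2 -0.49, Smc4 -0.65, Ncapg -0.31 and Top2a -0.70. After quantile normalization they were Ccnb2 0.090, Nusap1 0.14, Nuf2 0.0023, Bub1b 0.24 and Birc5 0.0065, and after cyclic loess Ccnb2 0.088, Nusap1 0.14, Nuf2 0.022, Bub1b 0.23, Birc5 0.0085 and Espl1 0.029. At the second brightest probe set they were Foxm1 -0.47, Tpx2 -1.08, Nusap1 1.21, Kif11 -0.48, Kif2c 0.032, Spc25 1.51, Bub1 -1.02, Bub3 0.032, Ttk 0.99, Ncapd2 0.51, Anln 0.48 and Cit -1.18. With the mean of probe sets they were Nusap1 0.56, Kif2c 0.37, Cenpa 0.17, Spc25 0.49, Bub1 -0.47, Ttk 0.29, Incenp 0.21 and Anln 0.088. With array weights they were Kif11 -0.017, Cenpf -0.41, Bub1 -0.31, Bub1b 0.020, Smc2 -0.11, Smc4 -0.27 and Top2a -0.079, and without _s_at or _x_at probe sets Kif2c 0.032, Bub3 0.032, Cdca8 0.21 and Cit -1.18. Over the fits without 1 array the ranges that crossed 0 were Foxm1 -0.088 to 0.18, Aurka -0.051 to 0.23, Nusap1 -0.22 to 0.0016, Kif11 -0.094 to 0.39, Cenpe -0.0033 to 1.02, Cenpf -0.51 to 0.43, Ndc80 -0.59 to 0.22, Bub1 -0.41 to 0.32, Bub1b -0.094 to 0.067, Espl1 -0.31 to 0.00019, Smc2 -0.20 to 0.61, Smc4 -0.39 to 0.46 and Top2a -0.12 to 0.24.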
